A study of Mus musculus with 4 samples.

Results

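The genes described here are 10 genes of the segmentation clock and the presomitic mesoderm, taken by name from the 24831 genes of the count tables: Dll1, Dll3, Lfng, Nrarp, Hes7, Tbx6, Msgn1, Mesp2, Ripply2 and Pcdh8. They were measured by RNA sequencing of mouse somitic gastruloids, embryonic stem cell aggregates that elongate and form somite-like segments in culture. All 4 libraries came from E14 triple reporter cells in which the endogenous Zeb2 gene is fused to the FKBP12 F36V degron and an HA tag, so the untreated group carries the tag as well. Each well was seeded with 300 sorted cells, CHIR99021, which activates WNT signalling, was given at 3 μM after 48 h, and aggregates were placed in 10% Matrigel at 96 h. The dTAG-13 group (2 libraries) received 100 nM dTAG-13, a degrader of FKBP12 F36V fusion proteins, at 72 h and 96 h. The untreated group (2 libraries) is so named in the sample titles, while the growth protocol gives DMSO as the control. How many gastruloids went into a library, and whether replicates were separate cultures, is not stated in the labels, so p-values cover only the spread between these libraries.

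Somites form from the presomitic mesoderm in a rhythm set by cyclic gene expression. NOTCH ligands on neighbouring cells, the glycosyltransferase LFNG and the repressor HES7 form the core of this clock in the mouse, and TBX6 and MSGN1 give the tissue its identity under WNT and FGF signals from the tail bud. Where the cyclic wave stops at the anterior end, MESP2 marks the next segment and RIPPLY2 ends its action. ZEB2, the tagged protein, is a zinc finger repressor that binds DNA at CACCT sequences and interacts with SMAD proteins.

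Because the tagged protein is a DNA-binding factor, the stretch from 250 to 51 bases before the RefSeq transcript start (GRCm38.p6, 5′ to 3′ along the gene) is shown for 5 genes: Hes7, Tbx6, Mesp2 and Ripply2, which were low with dTAG-13, and Msgn1, which was not. Capitals mark exact matches on either strand to CACCT, to TGGGAA, the core bound by the NOTCH effector RBPJ, or to TCACAC, a core of T-box factor sites. Hes7 is from chr11:69120203-69120402 (plus strand), Tbx6 from chr7:126781233-126781432 (plus), Mesp2 from chr7:79810477-79810676 (plus), Ripply2 from chr9:87015287-87015486 (plus) and Msgn1 from chr12:11208999-11209198 (minus). The outer bounds of Hes7 begin at 69118906, so its stretch lies inside the gene, before an internal transcript start.
Hes7: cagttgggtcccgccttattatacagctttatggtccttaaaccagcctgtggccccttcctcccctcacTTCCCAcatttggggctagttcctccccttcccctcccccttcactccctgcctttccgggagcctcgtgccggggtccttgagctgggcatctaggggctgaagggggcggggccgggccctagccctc
Tbx6: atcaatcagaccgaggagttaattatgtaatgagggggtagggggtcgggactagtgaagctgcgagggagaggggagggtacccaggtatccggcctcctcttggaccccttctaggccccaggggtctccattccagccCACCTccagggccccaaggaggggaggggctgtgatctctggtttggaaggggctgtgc
Mesp2: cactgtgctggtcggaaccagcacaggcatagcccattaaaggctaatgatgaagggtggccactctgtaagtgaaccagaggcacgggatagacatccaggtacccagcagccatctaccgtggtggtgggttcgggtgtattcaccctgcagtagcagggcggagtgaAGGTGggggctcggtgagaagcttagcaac
Ripply2: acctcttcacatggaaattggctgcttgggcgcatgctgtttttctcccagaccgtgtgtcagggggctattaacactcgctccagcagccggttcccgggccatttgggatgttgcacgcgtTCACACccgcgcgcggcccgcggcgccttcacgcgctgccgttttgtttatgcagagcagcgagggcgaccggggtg
Msgn1: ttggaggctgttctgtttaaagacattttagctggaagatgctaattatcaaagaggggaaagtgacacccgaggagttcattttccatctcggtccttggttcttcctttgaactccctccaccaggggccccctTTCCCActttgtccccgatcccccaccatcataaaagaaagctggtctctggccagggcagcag
The Hes7 stretch holds a TGGGAA match that begins 180 bases before the start, and Msgn1 holds the same letters 114 bases before it, each on the opposite strand. A CACCT match stands 109 bases before the start of Tbx6 and, on the opposite strand, 80 bases before that of Mesp2, and a TCACAC match stands 127 bases before that of Ripply2.

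Over the full window of 250 bases before to 50 after the start, all 10 genes had a RefSeq promoter and Dll1 had 2. CACCT occurred in 5 of the 10 genes (Dll1, Dll3, Mesp2, Tbx6 and Pcdh8), where 51.9% of all 32851 mouse promoters in the RefSeq table hold it. The longer form CACCTG was found in 2 genes, Dll1 and Dll3 (20.2% of all promoters). Every CACCTG match contains a CACCT match and is also an E-box, CANNTG, which 8 of the 10 genes and 72.3% of all promoters hold. TGGGAA occurred in Lfng, which had 2 matches, Hes7 and Msgn1 (25.6% of all promoters), TCACAC in Dll3 and Ripply2 (14.5%), and CACGTG in Lfng and Nrarp (7.15%). These are letter matches in a short window, and the series holds no binding data.

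With dTAG-13, 9 of the 10 genes had a lower fitted level than untreated, and Msgn1 did not. Ripply2 stood at 37 reads in the untreated libraries together and 3 with dTAG-13. Mesp2 and Pcdh8 were at 0.462 and 0.476 of the untreated level, Tbx6 at 0.538, Hes7, Lfng and Dll1 at 0.615 to 0.632, Dll3 at 0.747 and Nrarp at 0.887, while Msgn1 was at 1.16. The median log2 fold change of the 10 was -0.69, or -0.67 without Ripply2, against 0.00404 over the 13602 genes that passed the filter on low counts. Both dTAG-13 libraries lay below both untreated libraries for 8 of the 10, or 7 of 9 without Ripply2, a pattern found in 11.9% of all genes tested. A total of 9, Ripply2 among them, were lower with dTAG-13 in both replicate numbers, as were 23.9% of all genes tested. The share of all genes tested that were higher in both was 27.7%. Because the 10 genes were chosen with earlier results of these data known, such counts beside shares of all genes are descriptions alone.

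With the group as the only term, no member passed an adjusted p of 0.05 in edgeR's quasi-likelihood test with Benjamini-Hochberg adjustment over all genes, where 0% of genes passed (479 had an unadjusted p under 0.05) and the members' adjusted p ran from 0.774 to 1.00. At an unadjusted p under 0.05, 7 members were lower, or 6 of 9 without Ripply2, against 1.23% of all genes tested in that direction. That number was 5 without dTAG-13 replicate 1 and 4 without any other library. DESeq2 called 0 of the 8 members to which it gave an adjusted p (lowest 0.375), with 0.119% of genes called lower and 40 genes called in all. The calls in edgeR depended on leaving the replicate number out of the fit. With a replicate block, 6 of the 10, Ripply2 among them, were called lower, as were 1.77% of all genes tested. No label says that a number marks a shared culture or day. All 10 genes passed the low-count filter, but Ripply2 passed it through its untreated libraries alone. In bulk RNA, fewer presomitic cells and less of a transcript per cell cannot be told apart.

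**Figure D1:**
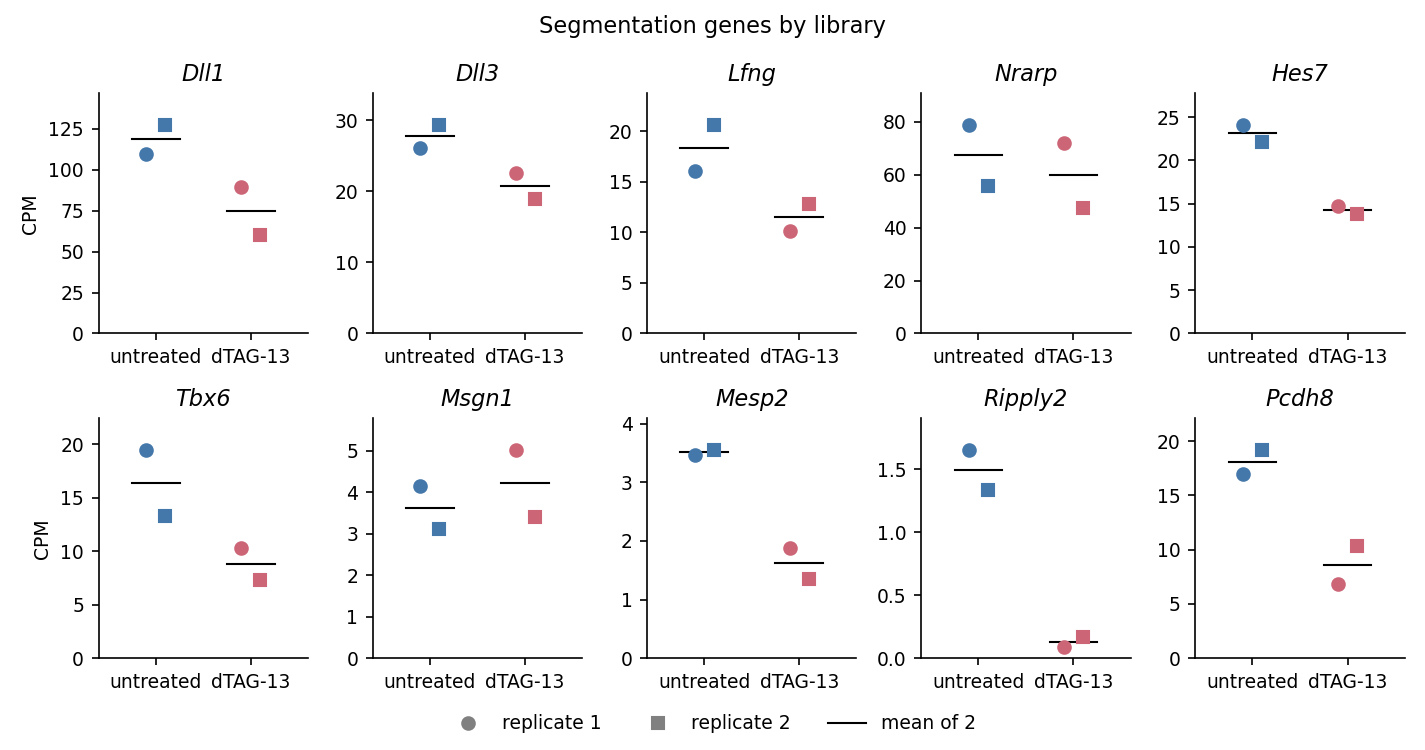
CPM (read counts scaled to library size) of each of the 10 genes in the 4 libraries, with the y axis of each panel starting at 0; circles are replicate 1, squares replicate 2 and lines the mean of 2. The groups are apart for all genes but Nrarp and Msgn1, and Ripply2 with dTAG-13 lies close to 0.

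The ligands were considered first. Dll1 encodes the DELTA ligand that activates NOTCH in the presomitic mesoderm and also in neural progenitors (chromosome 17, 15367354 to 15376932, minus strand). It stood at 109.9 and 127.5 CPM in untreated replicates 1 and 2 and at 89.7 and 60.3 CPM with dTAG-13. The dTAG-13 values were both below the untreated ones, but replicate 2 carried most of the difference: on the log2 CPM scale dTAG-13 was lower by 0.29 in number 1 and by 1.08 in number 2. The log2 fold change was -0.66 ± 0.21 (SE), with an adjusted p of 1.00 in edgeR, and it was -0.42 when dTAG-13 replicate 2 was left out and -0.98 when dTAG-13 replicate 1 was.

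Dll3 encodes a divergent ligand that acts inside the cell and dampens NOTCH activation (chromosome 7, 28293555 to 28301785, minus strand). Its level was 26.1 and 29.4 CPM untreated, against 22.5 and 18.9 CPM after dTAG-13. The groups were apart by a small margin, and the log2 fold change of -0.42 ± 0.19 had an unadjusted p of 0.0609 in edgeR's test across genes.

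LFNG adds sugar residues to NOTCH and changes its response to ligands, and Lfng itself cycles (chromosome 5, 140607341 to 140615545, plus strand). Lfng was at 16.0 and 20.6 CPM untreated, against 10.2 and 12.8 CPM after dTAG-13. Replicate 2 was the higher one in each group, by 0.36 and 0.33 on the log2 scale, so the difference with dTAG-13 was nearly equal in the 2 numbers, at -0.65 and -0.68. The fitted log2 fold change was -0.67 ± 0.25.

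NRARP is a feedback inhibitor of NOTCH that is itself a NOTCH target, and its gene is on chromosome 2 (25180758 to 25183339, plus strand). Nrarp had 78.9 and 55.8 CPM untreated, against 72.1 and 47.4 CPM after dTAG-13. The groups overlapped, replicate 2 was lower than replicate 1 in each group by more than dTAG-13 was lower than untreated, and the fitted log2 value of -0.17 ± 0.27 did not pass. Its sign turned, to 0.08, when untreated replicate 1 or dTAG-13 replicate 2 was left out.

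Hes7, the cyclic repressor that turns off its own gene and Lfng, varied least between replicates (chromosome 11, 69118906 to 69124054, plus strand). It was at 24.1 and 22.1 CPM untreated, against 14.7 and 13.8 CPM after dTAG-13. The group means were 23.1 ± 1.38 and 14.2 ± 0.648 CPM (SD, n = 2 each), a 1.63-fold lower level with dTAG-13. The log2 difference was -0.71 in number 1 and -0.68 in number 2, where the replicates of a group differed by 0.12 and 0.09 in size. Its log2 fold change of -0.70 ± 0.20 stayed between -0.76 and -0.65 when any 1 library was left out, and its adjusted p was 0.948 in edgeR.

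The factors of presomitic identity gave values of opposite sign. Tbx6, the T-box factor without which paraxial mesoderm turns neural (chromosome 7, 126781483 to 126785548, plus strand), had 19.5 and 13.3 CPM untreated, against 10.3 and 7.30 CPM after dTAG-13. Replicate 2 was lower than replicate 1 in both groups, and dTAG-13 was lower than untreated in both numbers, by 0.91 and 0.85 on the log2 scale. Its log2 fold change was -0.90 ± 0.31 with all libraries, with an adjusted p of 1.00 in edgeR, -0.60 without untreated replicate 1 and -1.17 when dTAG-13 replicate 1 was left out.

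Msgn1, a bHLH factor of the posterior presomitic mesoderm downstream of WNT signalling (chromosome 12, 11208382 to 11208948, minus strand), was at 4.14 and 3.11 CPM untreated, against 5.03 and 3.40 CPM after dTAG-13. Its groups overlapped, with the highest and the second lowest value both from dTAG-13 libraries. The log2 fold change was 0.21 ± 0.41, and it was -0.10 without dTAG-13 replicate 1. In reads, Msgn1 had 90 untreated and 99 with dTAG-13, an untreated to dTAG-13 ratio of 0.871 with a 95% exact binomial interval of 0.648 to 1.17 for counting error alone.

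**Figure D2:**
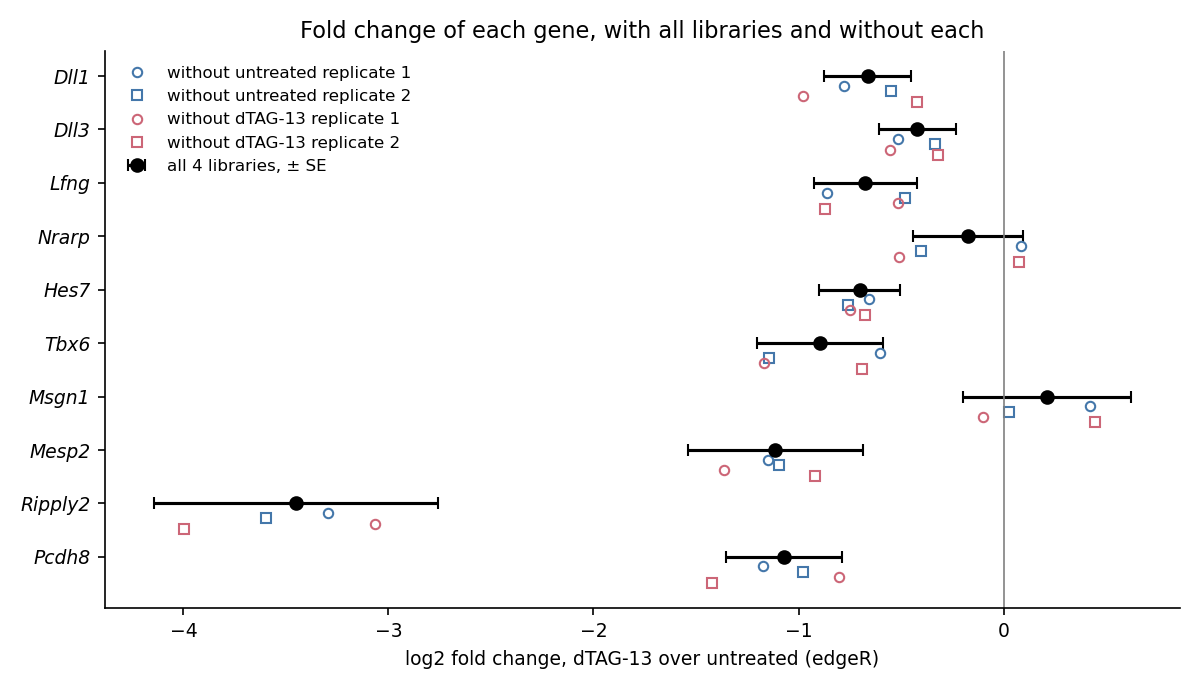
Fitted log2 fold change of dTAG-13 over untreated for each gene (x axis), with all 4 libraries (filled points, bars are SE) and with each library left out (open points). Points of Nrarp and Msgn1 lie on both sides of 0, and all points of the other 8 genes lie below 0.

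At the segment border the levels were low and the differences large. Mesp2, the bHLH factor that sets the next segment boundary (chromosome 7, 79810727 to 79813431, plus strand), had 3.47 and 3.56 CPM untreated, against 1.88 and 1.36 CPM after dTAG-13. The untreated libraries were nearly equal and both dTAG-13 libraries lay well below them, with a log2 fold change of -1.11 ± 0.43. Its adjusted p was 0.9999 in edgeR, and DESeq2 gave it no adjusted p. The 86 untreated and 38 dTAG-13 reads gave a ratio of 2.17 (95% exact interval 1.47 to 3.27, counting error only).

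Ripply2, a corepressor recruiter that MESP2 switches on and that ends Mesp2 expression, lies on chromosome 9 (87015537 to 87020441, plus strand). It had 22 and 15 reads untreated and 1 and 2 reads with dTAG-13, or 1.66 and 1.33 CPM against 0.0853 and 0.170 CPM. Its level with dTAG-13 was thus near that of a single read in a library, 0.0849 to 0.0853 CPM there. The ratio of untreated to dTAG-13 reads was 11.8, with a wide 95% exact interval of 3.74 to 59.9. The fitted log2 value, -3.45 ± 0.69 with an adjusted p of 0.774 in edgeR, rests on these few reads. The log2 CPM differences within numbers 1 and 2, -2.86 and -2.16, were made smaller in size by their prior count of 2.

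Pcdh8 encodes a protocadherin, also called PAPC, that acts in cell adhesion and epithelial sorting at the forming segment (chromosome 14, 79766772 to 79771312, minus strand). It was at 17.0 and 19.2 CPM untreated, against 6.82 and 10.4 CPM after dTAG-13. Both dTAG-13 libraries were far below the untreated ones, by 1.29 and 0.88 on the log2 scale within numbers 1 and 2. The log2 fold change was -1.07 ± 0.28 (adjusted p = 0.926 in edgeR), and it was -1.42 when dTAG-13 replicate 2 was left out and -0.80 when dTAG-13 replicate 1 was.

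The smaller of the 2 within-number differences was set against the larger difference between replicates of a group. Hes7, Lfng, Tbx6, Mesp2, Ripply2 and Pcdh8 were lower with dTAG-13 by more than their replicates differed, 6 of 10 genes, or 5 of 9 without Ripply2, as were 4.45% of all genes tested. For Dll1, Dll3, Nrarp and Msgn1 the replicates differed by as much or more. With 2 libraries against 2, an exact permutation test of a single gene cannot give a two-sided p below 0.33.

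**Figure D3:**
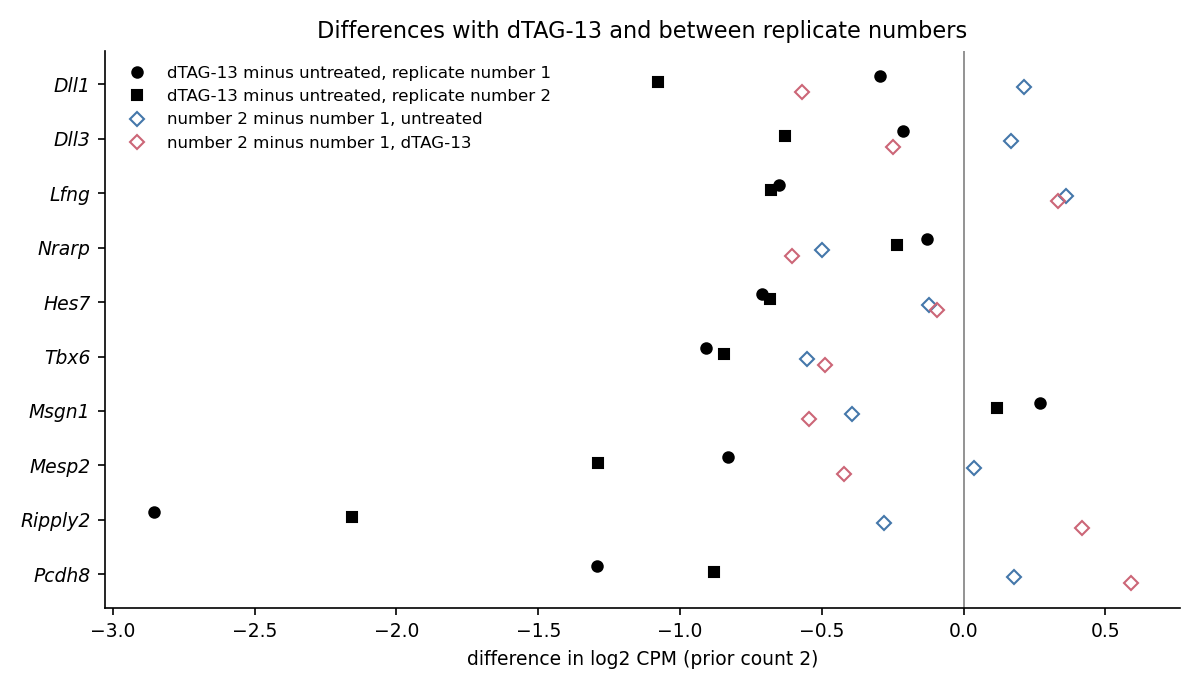
Difference in log2 CPM (prior count 2) for each gene: black points are dTAG-13 minus untreated within replicate number 1 (circles) and 2 (squares), open diamonds are number 2 minus number 1 within the untreated (blue) and dTAG-13 (red) libraries. The black points of Hes7, Lfng and Tbx6 nearly coincide, and those of Dll1 lie apart at -0.29 and -1.08.

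Levels between genes were compared per kilobase of exon (union of GENCODE M21 exons). Untreated, Dll1 (28.1 CPM per kb) and Nrarp (26.1) were highest and overlapped in their replicates. Hes7 followed at 12.8, above Dll3 (9.74), Tbx6 (9.08), Lfng (7.32) and Msgn1 (5.92), each of which overlapped its neighbour in this order. Pcdh8 was at 3.98, and Ripply2 (2.04) and Mesp2 (1.81) overlapped at the bottom. With dTAG-13, Hes7 was at 7.86 CPM per kb, Msgn1 at 6.88, Tbx6 at 4.89, Mesp2 at 0.832 and Ripply2 at 0.174. Msgn1 thus stood below Tbx6 without the compound and above it with it, with replicates of 8.21 and 5.54 against 5.72 and 4.05 that overlapped.

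GENCODE M21 places a gene on the opposite strand across Hes7 (9130213A22Rik), Dll1 (A930024N18Rik), Nrarp (Gm38287) and Pcdh8 (Gm9748). Whether reads were counted by strand is not stated in the labels or the tables, so reads of such pairs cannot be told apart.

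Other genes of the same process were described as lists, by counts and medians, and their differences from the 10 genes were not tested. Among 22 further genes that cycle in the presomitic mesoderm, which include WNT and FGF feedback genes, 0 were called in edgeR (1 at an unadjusted p under 0.05) or in DESeq2, 4 were lower and 8 higher in both numbers, and the median log2 fold change was 0.11 (from -0.12 to 0.17 over the alternatives). Hes5, a NOTCH target that is also strong in neural progenitors, was the low exception at 15.7 and 10.7 CPM untreated, against 4.86 and 1.95 CPM after dTAG-13, a log2 fold change of -1.95 ± 0.48. Dkk1, a secreted WNT antagonist, had 32.4 and 19.5 CPM untreated, against 42.3 and 36.8 CPM after dTAG-13.

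Among 16 genes of the tail bud and posterior presomitic mesoderm, 0 were called by edgeR (3 higher at an unadjusted p under 0.05) or by DESeq2, 6 were lower and 7 higher in both numbers, and the median was 0.0432. Its sign rested on single libraries, with -0.28 and -0.26 when untreated replicate 1 or dTAG-13 replicate 2 was left out and 0.35 and 0.18 when untreated replicate 2 or dTAG-13 replicate 1 was. Evx1, a homeobox gene of the streak and tail bud, was at 9.57 and 11.4 CPM untreated, against 21.2 and 17.5 CPM after dTAG-13 (log2 fold change 0.89 ± 0.24). Wnt5a, a noncanonical WNT ligand of the tail bud, was at 135.8 and 129.5 CPM untreated, against 189.7 and 160.2 CPM after dTAG-13. Neither passed over all genes with the group as the only term.

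Of 18 genes of the anterior presomitic mesoderm and somites, 16 passed the filter, 0 were called in edgeR (5 lower at an unadjusted p under 0.05), and 9 were lower and 1 higher in both numbers. The fitted value was below 0 for 13 and above 0 for 3, with Pax9, a sclerotome factor, at 0.52 and Efnb2, an ephrin ligand, at 0.29, both singled out after their values were seen. The list's median was -0.38, with a range over the alternatives of -1.38, without dTAG-13 replicate 1, to -0.12, without untreated replicate 1. Dmrt2, a factor of the dermomyotome, was at 11.3 and 10.1 CPM untreated, against 2.64 and 2.72 CPM after dTAG-13 and was the 1 gene of this list called by DESeq2 (adjusted p = 0.00665). Tcf15, which somites need to become epithelial, was at 9.64 and 9.96 CPM against 3.84 and 4.16 CPM.

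The machinery that produces and reads the NOTCH signal lay near 0. Of 24 receptors, other ligands and processing genes, 0 were called by edgeR (1 lower at an unadjusted p under 0.05) or by DESeq2, 5 were lower and 3 higher in both numbers, and the median log2 fold change was 0.011 (from -0.085 to 0.067 over the alternatives). Maml2, a coactivator of the NOTCH intracellular domain, was at 36.3 and 24.9 CPM untreated, against 22.4 and 14.8 CPM after dTAG-13. Mfng, a paralog of Lfng, was at 5.27 and 7.21 CPM against 2.73 and 4.08 CPM, a log2 fold change of -0.87 ± 0.40.

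**Figure D4:**
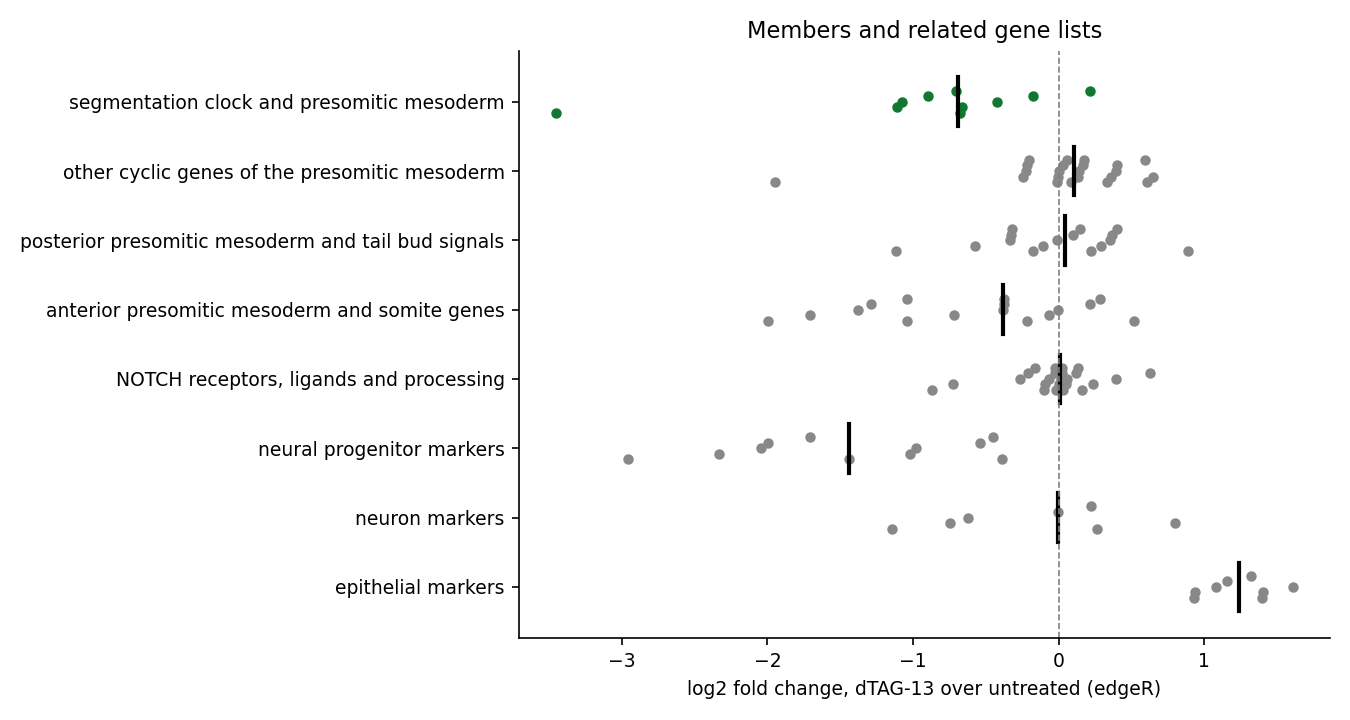
Fitted log2 fold change of dTAG-13 over untreated (x axis) for the 10 genes (green) and for 7 related or marker lists (grey), 1 point per gene that passed the low-count filter, with list medians (black bars) and the median of all genes (dashed line). The median of the 10 genes is -0.69, and those of the other cyclic, tail bud and NOTCH machinery genes lie between 0 and 0.11.

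Markers of other tissues also differed in level between the groups. Neural progenitors also express Dll1, Dll3, Lfng and Nrarp. Of 13 neural progenitor markers, 11 passed the filter and all 11 were lower with dTAG-13 in both numbers (median log2 fold change -1.44). DESeq2 called 2 of them, Irx3 and, named after its values were seen, Sox1. EdgeR called 0, with 7 lower at an unadjusted p under 0.05. The median of the neural progenitor list ran from -1.78 to -1.02 over the alternatives, the latter with no low-count filter. The summed level of the 13 was 217.4 and 409.2 CPM untreated, against 150.8 and 218.3 CPM after dTAG-13, so that the groups met at their edges. Sox2, named after its values were seen, made up 103.6 and 203.8 CPM of the untreated sums and 95.6 and 138.9 CPM of the dTAG-13 sums. Its log2 fold change of -0.39 was the smallest in size of the 11, so the sums follow Sox2 more than the other markers. Pou3f2, a neural POU factor, had 4.82 and 5.07 CPM untreated, against 1.28 and 1.19 CPM after dTAG-13. Neuron markers had a median of -0.00385, with 3 lower and 2 higher in both numbers among 7 that passed the filter, and summed to 49.0 and 64.7 CPM untreated, against 54.4 and 67.5 CPM after dTAG-13. That median ran from -0.76, without dTAG-13 replicate 2, to 0.00934 over the alternatives.

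The 6 somite markers, Meox1, Tcf15, Pax3, Uncx, Tbx18 and Foxc2, all belong to the list of anterior presomitic and somite genes above. They summed to 243.3 and 130.9 CPM untreated, against 119.2 and 66.8 CPM after dTAG-13, and all 6 were lower in both numbers. Both dTAG-13 libraries lay below both untreated libraries for 4 of the 6 (11.9% of all genes tested), but not for Meox1 or Uncx. Meox1 made up 167.7 CPM of the first of these sums, and was at 77.2 CPM in untreated replicate 2 and 81.2 CPM in dTAG-13 replicate 1. Of the larger list, 9 of 16 genes were lower in both numbers (23.9% of all genes tested): these 6, Aldh1a2, Meox2 and Dmrt2. The rest of that list did not share the pattern. Among them, named after their values were seen, Foxc1, Pax9 and Snai2 had log2 fold changes of -0.0003, 0.52 and -0.07. Epithelial markers were higher with dTAG-13 in both numbers for 8 of 8, with sums of 575.1 and 810.7 CPM against 1036 and 1954 CPM, and DESeq2 called Krt8, Krt18, Cldn6 and Cldn7. Sums of the 6 gut endoderm markers were 314.5 and 228.2 CPM untreated, against 356.2 and 319.5 CPM after dTAG-13, and those of the 6 pluripotency markers were 228.5 and 286.4 CPM against 287.1 and 422 CPM. The summed level of the 6 endothelial markers differed more between replicate numbers than with dTAG-13, at 164.5 and 41.8 CPM untreated, against 135.7 and 48.5 CPM after dTAG-13. Kdr made up 102.8 CPM of the first endothelial sum, and Pecam1 did not share its pattern, at 18.68 and 17.97 CPM untreated, against 23.2 and 25.3 CPM after dTAG-13. No marker in these lists was at 0 in all libraries. The part of these cell types in the levels of the 10 genes was not tested.

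The genes closest to the mean pattern of the 10 across the 4 libraries were Mxra7, Ptn, Lrig1, Rasa3 and Onecut2, at root mean square distances of 0.0449 to 0.0799 on the log2 scale among 11377 candidates. The mean pattern includes Ripply2, whose log2 CPM differences within numbers 1 and 2 were -2.86 and -2.16. The search was not repeated with Ripply2 left out of the mean, so the named genes hold for this pattern only. Mxra7, a matrix remodelling associated gene, had 34.1 and 34.2 CPM untreated, against 20.7 and 19.4 CPM after dTAG-13. Ptn, a secreted growth factor, had 126.5 and 109.7 CPM against 69.6 and 61.6 CPM. With 4 libraries such closeness is a description alone.

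Reads counted in genes came to between 11491330 and 12716172 per library, and 24.12% to 35.65% of reads fell outside genes, with the most in untreated replicate 1. Zeb2 mRNA was at 98.3 and 164 CPM untreated, against 102.5 and 108.1 CPM after dTAG-13 (log2 fold change -0.32, or 0.10 without untreated replicate 2). The compound acts on the protein, so the Zeb2 transcript does not check the labels.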

How the data were processed

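Ribosomal RNA-depleted libraries were made from total RNA of 2 untreated and 2 dTAG-13 samples, per the labels' protocols. The deposited tables, 1 per library, give unnormalized read counts by gene symbol. The submitters' processing notes name the build GRCm38.p6 and, without roles, HTSeq 0.12.4, STAR 2.7.6a, DESeq2 1.34.0 and fastp 0.20.1. Neither an annotation nor a strand setting is given in the sources used here. HTSeq summary lines (24.12% to 35.65% of reads outside genes, 0.209% to 0.240% ambiguous) entered neither library sizes nor tests.

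Counts were tested with edgeR 4.0.16 in R 4.3.3: filterByExpr by group (minimum count 10, minimum total 15), TMM factors, robust glmQLFit and two-sided glmQLFTest, with group as the only term and Benjamini-Hochberg adjustment over 13602 genes at 0.05. The biological coefficient of variation was 21.7%, on 2 residual degrees of freedom. The SE was taken as the size of the log2 fold change over the root of F. CPM uses TMM library sizes, and log2 CPM differences add a prior count of 2. DESeq2 1.42.0 was an alternative, as were other scalings, filters, thinned counts, a replicate block and leaving out each library. The test was tried on simulated data first. Replicates were checked as not being 1 library deposited under both names (chi-square per degree of freedom of 36.3 and 30.9).

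The 10 genes, the lists and the tests were chosen with earlier results of these data known. From each other list, up to 4 genes were eligible for naming, by smallest p among those averaging at least 0 in log2 CPM, and the 5 nearest patterns were sought among genes with at least 2. Exon lengths come from GENCODE M21, coordinates and promoters from RefSeq for GRCm38.p6. Intervals on reads cover counting error alone, because without molecular identifiers several reads can stem from 1 molecule. Totals were 11491330 to 12716172 reads, and with the TMM library sizes 1 read was worth 0.0753 to 0.0890 CPM.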

Additional observations from a re-analysis of the deposited data

How the results depend on the processing

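For the 10 genes, 126 of 129 log2 fold changes under 13 alternatives kept their direction. The exceptions came with a library left out: Nrarp ranged from -0.5088 to 0.08437 (above 0, also at 0.07662, when untreated replicate 1 or dTAG-13 replicate 2 was missing) and Msgn1 from -0.09862 (dTAG-13 replicate 1 missing) to 0.4475. Ripply2 gave no value at a minimum of 50 counts, which it did not reach. Among 20 other genes examined, 259 of 260 values kept it, all but Zeb2, which ranged from -0.6532 to 0.1001 (untreated replicate 2 missing). The median of the 10 ranged from -0.7772 to -0.6559 over libraries left out, and the number of members with groups apart was 7 or 8 under each scaling and filter tried, a comparison of settings added after the data were seen. DESeq2 called 40 genes over all, where edgeR called 0. Leaving out 1 library leaves an arm with 1 sample, which is assumed to vary like the others.

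A replicate block in the edgeR fit gave 636 called genes, 241 of them lower with dTAG-13 (1.77%). It called 6 of the 10 members, all lower: Dll1, Hes7, Lfng, Pcdh8, Ripply2 and Tbx6. Among these, Ripply2 had passed the low-count filter through its untreated libraries alone. Of the other genes, the block fit called, among others, Hes5, Dkk1 and Evx1, and it did not call Wnt5a (adjusted p = 0.139 in edgeR). Same-numbered libraries deviated together (correlation of 0.631 across genes), but no label says that a number marks a shared culture or day, and 2 pairs are too few to settle the pairing from the data.

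Depth limits Ripply2, at 1 to 22 reads per library, and Mesp2, at 16 to 46.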

Other observations

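The closest relatives of the border genes were looked at after their values were seen. Mesp1, the neighbour and paralog of Mesp2, was at 3.69 and 0.712 CPM untreated, against 2.39 and 1.44 CPM after dTAG-13, so that its groups overlapped and untreated replicate 2 was the lowest. Ripply1, the paralog of Ripply2, was at 1.36 and 0.178 CPM untreated, against 0.341 and 0.170 CPM after dTAG-13 and was removed by the low-count filter. Its level was set by untreated replicate 1, where that of Ripply2 was alike in both untreated libraries.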
